A study of Mus musculus with 48 samples.

Results

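The collagen gene family comprised every protein-coding gene of the deposited RNA table named Col, a number, a and a number. Of 43 such genes, 39 reached 10 normalized reads or more in 2 or more of the 8 RNA libraries and are the members described here, out of 17771 genes that met this limit. The other 4, Col6a4, Col10a1, Col19a1 and Col28a1, stayed at 6 normalized reads or fewer in every library. The choice used the level alone, not the difference between groups, so a gene that is high in 1 group only can still be a member. In WT livers 34 of the 39 averaged at least 10 normalized reads.

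Collagens are extracellular proteins in which 3 chains wind around each other into a rigid helix. Fibrillar collagens form the banded fibres of connective tissue, type IV collagens the sheet of basement membranes and type VI collagens the beaded filaments around cells, while smaller classes coat fibres, anchor tissues or cross the cell membrane. In liver, fibrillar collagens are known as products of stellate cells and portal fibroblasts, and their build-up defines fibrosis. Hepatocytes are known to make Col18a1, the source of endostatin.

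The RNA groups were 3 libraries of livers without C/EBPα (genotype C/EBPa lox/lox / Alfp-Cre), 2 of livers without HNF4α (HNF4a lox/lox / Alfp-Cre) and 3 of wild-type (WT) livers. All mice were male F1 (C57Bl6/CBA) animals without treatment. Cre under the Alfp promoter acts in the liver epithelial lineage, and stellate cells, endothelium and blood cells of the bulk tissue are not its known targets. The sample labels give an age of 60 postnatal days for the RNA livers whereas the series' design text gives embryonic day 18.5, and the age could not be settled. C/EBPα and HNF4α binding was given as peak lists from chromatin immunoprecipitation of wild-type livers of the same strain before birth (E15.5 and E18.5, days of embryonic life) and after it (P0.5, P14 and P60, days of postnatal life), with 2 replicates at each. Nothing in the labels says that the RNA replicates came from separate animals, so p-values measure only the spread between these libraries.

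Library totals were 13.4 to 16.4 M normalized reads in C/EBPα KO, 20.0 and 26.0 M in HNF4α KO, and 20.4 to 22.5 M in WT livers. Cebpa had 322, 419 and 998 normalized reads in C/EBPα KO, against 9999, 9594 and 5511 in WT livers (log2 change -3.98 ± 0.44, adjusted p = 0.000413). Hnf4a had 1238 and 2444 in HNF4α KO, against 9098, 4948 and 6718 in WT livers (-1.95 ± 0.45, adjusted p = 0.033). With HNF4α KO replicate 2 alone the Hnf4a change was -1.46 and did not pass (adjusted p = 0.435), and its 2444 lay close to the 2492, 2530 and 4510 of the C/EBPα KO libraries. HNF4α KO replicate 1 held skeletal muscle RNA: 15 muscle markers summed to 662945 normalized reads there and to 291 in replicate 2, to 117, 198 and 1506 in C/EBPα KO, and to 89, 200 and 118 in WT livers. Ckm, the muscle creatine kinase, had 234321 in replicate 1 and 20 in replicate 2. Pvalb, a calcium-binding protein of muscle fibres, had 893 in replicate 1 and 33 in replicate 2, and was at 0 in every C/EBPα KO and WT library. Whether replicate 2 also held a little muscle RNA was not tested. Muscle connective tissue also contains collagens, so the collagen results of HNF4α KO livers are given with both libraries and with replicate 2 alone, and calls of other genes that ended without replicate 1 are named as such. The 8 hepatocyte markers summed to 243740 to 923961 in C/EBPα KO, 1201437 and 1640983 in HNF4α KO, and 2641316 to 4060214 in WT livers. Alb made up 2758855 of the 3805496 in WT replicate 1. The markers were uneven: Ttr was level in C/EBPα KO (log2 change 0.00 ± 0.45), and Ahsg was not lower in HNF4α KO livers (0.37 ± 1.08). In each knockout 1 of the 8 markers had a log2 change above 0. Of these markers, Fgb fell in C/EBPα KO livers (-3.37 ± 0.52) and Apob in HNF4α KO livers (-4.96 ± 0.70), the second short of the threshold with replicate 2 alone (adjusted p = 0.0524). Fewer cells of a type and less RNA per cell cannot be told apart in such bulk tissue.

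A few abundant collagens were higher in HNF4α KO livers, and the summed reads of the family with them. Summed over the members, there were 103770 and 67834 normalized reads in HNF4α KO, or 0.399% and 0.339% of the library, against 46003, 30955 and 48221 (0.205%, 0.138% and 0.237%) in WT livers. Both HNF4α KO sums lay above all 3 WT sums. The classes were uneven: in replicate 2 the fibrillar sum was 2.67 times the WT mean, the multiplexin sum 0.632 and the transmembrane sum 0.533 times. In the limma fit across all 17771 genes with Benjamini-Hochberg adjustment, 4 of 39 members passed an adjusted p under 0.05, all higher in HNF4α KO livers and none lower: Col1a1, Col1a2, Col6a1 and Col6a2. That is 10.3% of the members, where 4.7% of all genes passed in either direction, 1.54% higher and 3.17% lower. By an unadjusted p under 0.05 in limma, 11 members (28.2%) were higher and 2 (5.13%) lower, against 9.85% and 10.7% of all genes. The members' median log2 change was 1.00, against 0.02 over all genes tested. In 19 members (48.7%) both HNF4α KO libraries exceeded all 3 WT libraries, as in 22.1% of all genes, and in 4 members (10.3%) both were below, as in 22.4% of all genes.

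The 4 calls ended when the library with muscle RNA was left out, which also left the group with 1 library. Without HNF4α KO replicate 1, no member passed the limma test, while 1.19% of all genes did (0.129% higher, 1.06% lower); 6 members (15.4%) were higher and 0 lower at an unadjusted p under 0.05, as were 3.61% and 5.51% of all genes. The lone remaining HNF4α KO library is assumed in that fit to vary like the other groups. The members' median log2 change was then 0.75, against 0.02 over all genes. Replicate 2 on its own exceeded all 3 WT libraries in 21 of 39 members (53.8%), as in 29.3% of all genes, and lay below them in 6 (15.4%), as in 28.6% of all genes. Between the 2 HNF4α KO libraries, replicate 1 was the higher in 25 members (64.1%, against 48.4% of all genes) and at least 2 times replicate 2 in 10 (25.6%, against 10.8%).

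**Figure D1:**
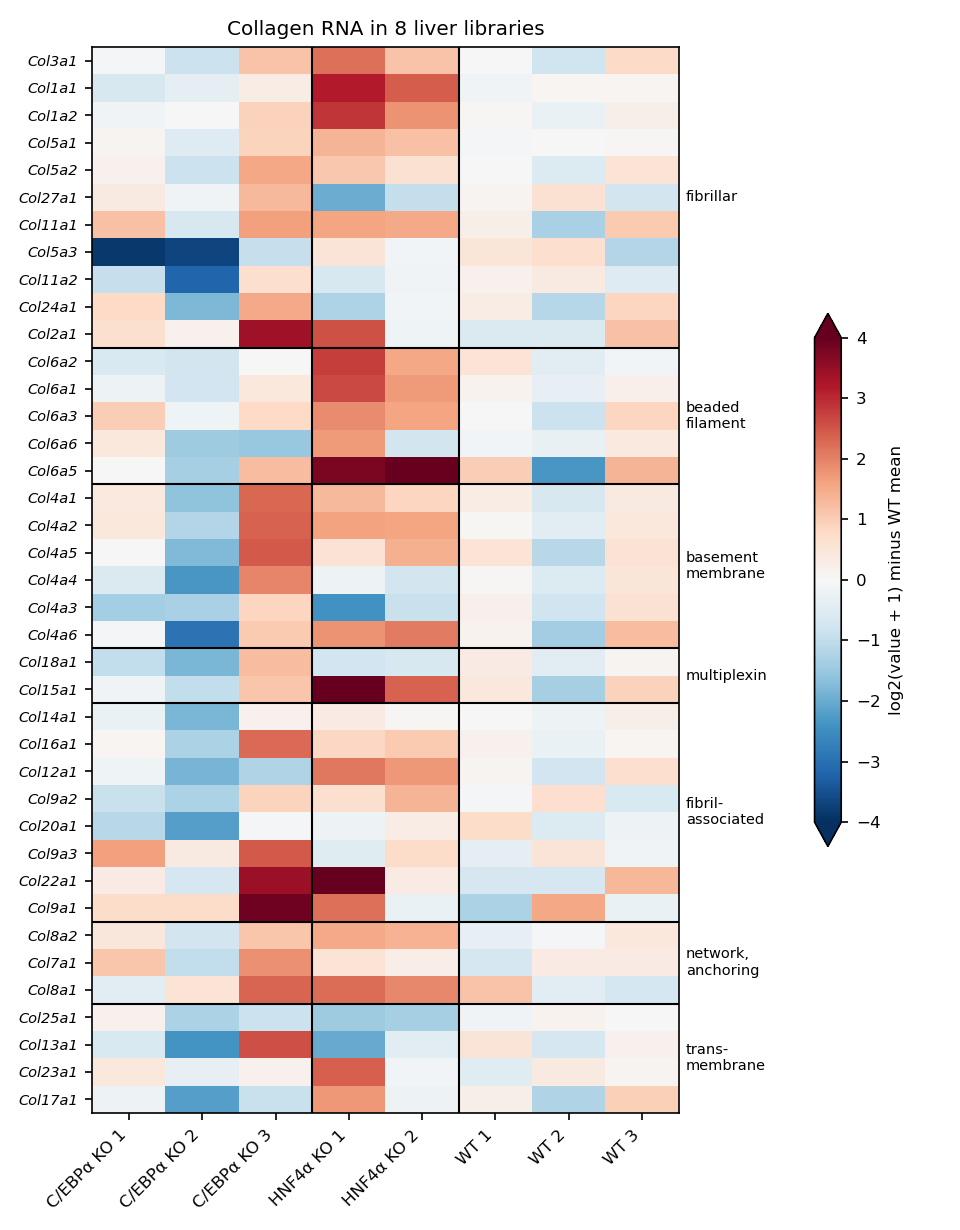
Heat map of the 39 collagen genes (rows, grouped by structural class) in the 8 RNA libraries (columns). Colour is log2(value + 1) of normalized reads minus the mean of the 3 WT libraries, with the scale ending at -4 and 4. HNF4α KO columns are red for Col1a1, Col1a2, Col6a1 and Col6a2, and C/EBPα KO replicate 3 is the highest of its group in 33 of 39 rows.

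Type I collagen, the main fibrillar collagen of scar and bone, is built from Col1a1 and Col1a2 chains, and both RNAs rose in HNF4α KO livers. Col1a1 (mm9 chr11:94797538-94814356, plus strand) had 19659 and 11721 normalized reads in HNF4α KO, against 1980, 2291 and 2294 in WT livers. The log2 change was 2.80 ± 0.40 (SE; adjusted p = 0.00242), or 6.95-fold. Both libraries stood far above WT, and replicate 2 alone was 5.36 times the WT mean, with a log2 change of 2.42 ± 0.50 and an adjusted p of 0.0542. When C/EBPα KO replicate 3 was left out as well, a choice made after seeing the data, Col1a1 passed (2.42 ± 0.40, adjusted p = 0.0215). Col1a2 (mm9 chr6:4454814-4491543, plus strand) had 14995 and 7197 in HNF4α KO, against 2133, 1713 and 2424 in WT livers (2.33 ± 0.45, adjusted p = 0.0131). For Col1a2, replicate 2 alone was 3.44 times the WT mean, with a log2 change of 1.80 ± 0.54 and an adjusted p of 0.225. The ratio of the chains overlapped between HNF4α KO and WT: normalized reads of Col1a1 divided by those of Col1a2 were 0.685 to 0.797 in C/EBPα KO, 1.31 and 1.63 in HNF4α KO, and 0.928 to 1.34 in WT libraries.

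Type VI collagen is assembled from Col6a1 and Col6a2 chains with a larger partner such as Col6a3. Col6a1 (mm9 chr10:76171537-76188913, minus strand) had 4892 and 2533 normalized reads in HNF4α KO, against 853, 616 and 909 in WT livers (2.17 ± 0.43, adjusted p = 0.0157). Col6a2 (mm9 chr10:76058507-76086375, minus strand) had 6507 and 2816 in HNF4α KO, against 1398, 706 and 885 in WT livers (2.16 ± 0.45, adjusted p = 0.0198). Both HNF4α KO libraries lay above every WT library for each gene, and replicate 1 was the higher. With replicate 2 alone the log2 changes were 1.69 ± 0.54 for Col6a1 (adjusted p = 0.275) and 1.56 ± 0.53 for Col6a2 (adjusted p = 0.324). Col6a3 had 2045 and 1631 in HNF4α KO, against 547, 300 and 1001 in WT livers, without overlap but short of the threshold (1.74 ± 0.51, adjusted p = 0.0827). The low Col6a5, a paralogous large chain, had 68 and 135 in HNF4α KO, against 9, 0 and 12 in WT livers (4.26 ± 1.21, adjusted p = 0.0722), and here replicate 2 was the higher. Col6a6, another paralogous chain, had 140 and 25 in HNF4α KO, against 39, 34 and 56 in WT livers, so the 2 knockout libraries fell on either side of WT.

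Of the genes that passed, 3 had a promoter in the RefSeq table. Because they moved together, the 150 bases before each RefSeq start are shown 5′ to 3′ on the gene's strand (GRCm38.p6), for Col6a2 those before the farther upstream of its 2 starts. Capitals mark a CCAAT box, a GC box, or the C/EBP or HNF4 letters given with the promoter counts.
Col1a2, chr6:4505468-4505617, plus strand: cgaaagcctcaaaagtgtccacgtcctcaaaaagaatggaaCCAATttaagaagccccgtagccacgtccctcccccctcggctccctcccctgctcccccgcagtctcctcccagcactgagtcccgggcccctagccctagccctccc
Col6a1, chr10:76726045-76726194, minus strand: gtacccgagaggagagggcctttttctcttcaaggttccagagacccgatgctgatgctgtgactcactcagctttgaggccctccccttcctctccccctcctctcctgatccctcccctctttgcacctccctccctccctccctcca
Col6a2, chr10:76623631-76623780, minus strand: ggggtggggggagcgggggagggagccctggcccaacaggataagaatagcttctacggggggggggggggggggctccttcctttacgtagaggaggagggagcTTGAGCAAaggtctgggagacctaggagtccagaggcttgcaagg
The Col1a2 stretch held 1 match, a CCAAT box, the Col6a1 stretch 0 and the Col6a2 stretch 1, to the C/EBP letters. The stretches therefore shared none of the letters searched.

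**Figure D2:**
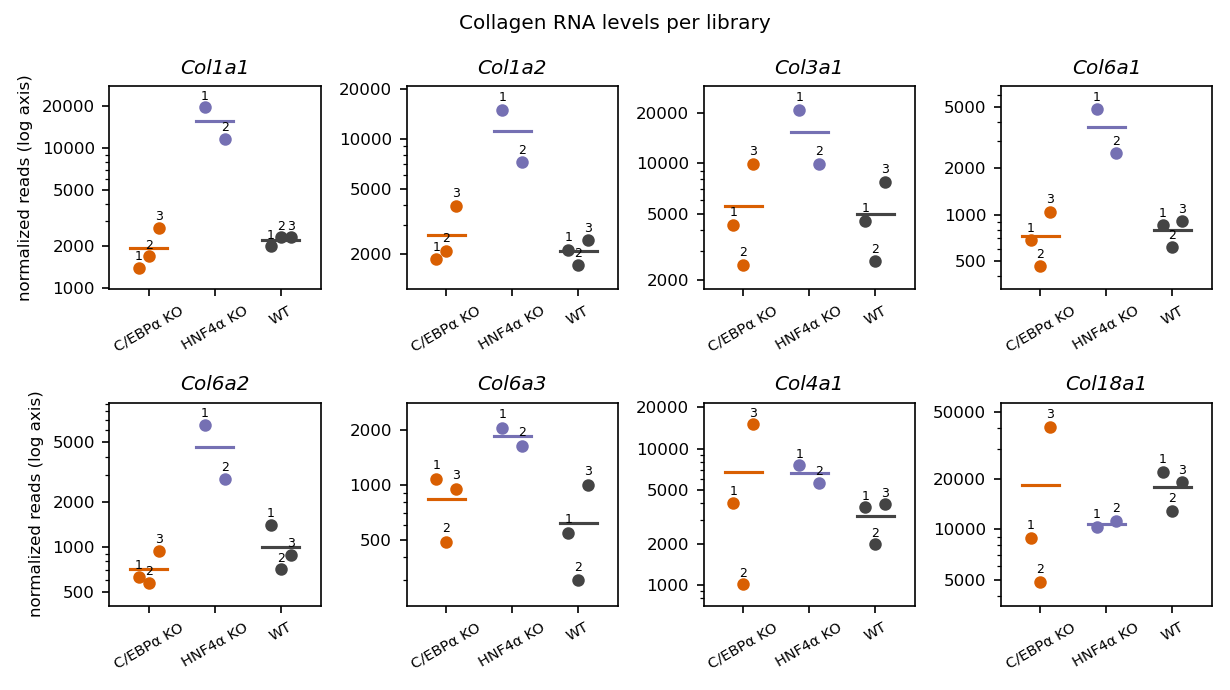
Normalized reads (log axis) of 8 collagen genes in C/EBPα KO, HNF4α KO and WT livers; each point is a library with its replicate number and each line the group mean. Both HNF4α KO points lie above all WT points for Col1a1, Col1a2, Col6a1 and Col6a2, whereas Col4a1 and Col18a1 in C/EBPα KO spread widely around WT.

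The remaining 9 fibrillar collagens did not pass in HNF4α KO livers. Col3a1, which joins type I collagen in fibres of soft tissue, had 20727 and 9822 normalized reads in HNF4α KO, against 4529, 2591 and 7707 in WT livers (1.67 ± 0.64, adjusted p = 0.171). Its replicate 2 was 1.99 times the WT mean. The type V chains, which set the diameter of fibres, were uneven: Col5a1 had 4824 and 4227 in HNF4α KO, against 1810, 1911 and 1943 in WT livers (1.26 ± 0.41, adjusted p = 0.116). Col5a2 had 1730 and 1272, against 826, 564 and 1204 in WT livers (0.85 ± 0.60). Both HNF4α KO values exceeded all WT values for these 3 genes and for Col11a1, a minor fibre chain with 343 and 330 in HNF4α KO, against 134, 46 and 238 in WT livers. Col27a1, a fibrillar collagen of cartilage, went the other way without passing, with 186 and 381 in HNF4α KO, against 796, 1143 and 447 in WT livers (-1.47 ± 0.53, adjusted p = 0.147). The values of Col2a1, Col5a3, Col11a2 and Col24a1 overlapped between HNF4α KO and WT livers.

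None of the 6 type IV collagens of basement membranes passed in either knockout. Their sum was 11865 and 10231 normalized reads in HNF4α KO, against 5519, 3104 and 6149 in WT livers. Col4a1, a chain of the most widespread type IV collagen, had 7512 and 5621 in HNF4α KO, against 3738, 1988 and 3913 in WT livers (1.08 ± 0.86, adjusted p = 0.499). Its partner Col4a2 had 3897 and 3861, against 1314, 942 and 1706 in WT livers (1.60 ± 0.77, adjusted p = 0.268). These paired genes are read in opposite directions from starts that lie 21 bases apart in mm9, and normalized reads of Col4a1 divided by those of Col4a2 stayed between 1.46 and 2.84 in the 8 libraries. Col4a5 and Col4a6, the X-linked pair, also had both HNF4α KO values above WT, and Col4a3 had both below, with 9 and 28 in HNF4α KO, against 60, 30 and 80 in WT livers (-1.65 ± 0.84, adjusted p = 0.294). Col4a4, the partner of Col4a3, had 38 and 26 in HNF4α KO, against 46, 30 and 62 in WT livers (-0.48 ± 1.02), so replicate 2 was below WT for both chains of that pair.

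The multiplexins of the vascular basement membrane diverged. Col18a1 had 10292 and 11148 normalized reads in HNF4α KO, against 21800, 12753 and 18972 in WT livers, where it was the member with the most reads. Both HNF4α KO values were below WT, yet the log2 change of -0.70 ± 0.75 did not pass (adjusted p = 0.626). Normalized reads of Col18a1 divided by those of Col1a1 were 0.524 and 0.951 in HNF4α KO, against 11, 5.57 and 8.27 in WT libraries. Col15a1 had 550 and 141 in HNF4α KO, against 36, 10 and 51 in WT livers, just short of the threshold (3.34 ± 0.88, adjusted p = 0.0564).

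Of the 8 fibril-associated collagens, none passed in HNF4α KO livers. Col14a1, which coats fibres, was level, with 3024 and 2501 normalized reads in HNF4α KO, against 2418, 2096 and 2836 in WT livers (0.18 ± 0.52). Col12a1, known from tension-bearing tissue, had 637 and 488 in HNF4α KO, against 156, 85 and 232 in WT livers (1.93 ± 0.58, adjusted p = 0.0886). Col16a1, a fibre-linking chain, had 324 and 376 in HNF4α KO, against 205, 150 and 191 in WT livers (0.95 ± 0.78), and in these last 2 genes the groups did not overlap. Col9a1, Col9a2, Col9a3, Col20a1 and Col22a1 overlapped between the groups, and Col22a1, a collagen of the muscle-tendon junction, had 65 in HNF4α KO replicate 1 but 1 in replicate 2, against 0, 0 and 3 in WT livers.

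Network and anchoring collagens were scarce. Col8a2 had 152 and 138 normalized reads in HNF4α KO, against 41, 49 and 70 in WT livers (1.46 ± 0.60, adjusted p = 0.199), and Col8a1, its partner in the type VIII network, had 37 and 30, against 17, 5 and 4 in WT livers. Both type VIII genes were higher without overlap, while Col7a1, the anchoring fibril collagen of skin, had 22 and 18 in HNF4α KO, against 9, 19 and 19 in WT livers. The transmembrane class showed no such difference. Col25a1 had 55 and 59 in HNF4α KO, against 135, 164 and 151 in WT livers (-1.38 ± 0.51, adjusted p = 0.162), the 1 gene of 4 in the class without overlap. Col13a1 had 16 and 49, against 97, 42 and 76 in WT livers, and Col17a1 and Col23a1 overlapped too.

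**Figure D3:**
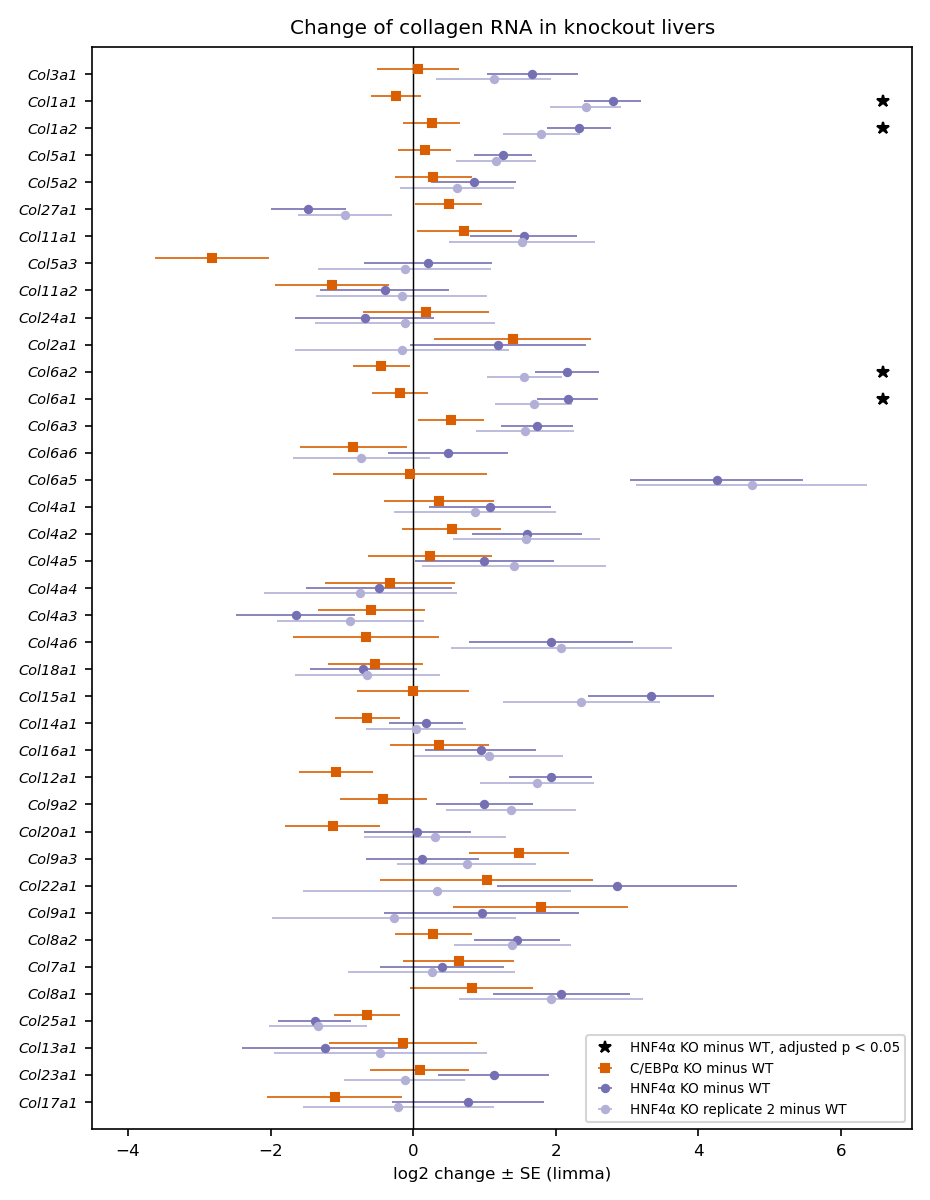
Log2 change ± SE of each collagen gene from limma, for C/EBPα KO minus WT (squares), HNF4α KO minus WT (dark circles) and HNF4α KO replicate 2 minus WT (light circles); stars mark an adjusted p under 0.05 for HNF4α KO minus WT. Stars stand at Col1a1, Col1a2, Col6a1 and Col6a2, and 31 of 39 dark circles lie right of 0.

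No collagen passed in C/EBPα KO livers, where 3.75% of all genes did (0.883% higher, 2.86% lower). By unadjusted p under 0.05 in limma, 0 members were higher and 1, Col5a3, was lower, as were 5.71% and 8.71% of all genes. The median log2 change of the members was 0.07, against 0.03 over all genes. No member had C/EBPα KO and WT values without overlap, as 8.54% of all genes had on the higher and 10.3% on the lower side. Col1a1 had 1391, 1677 and 2684 normalized reads in C/EBPα KO, against 1980, 2291 and 2294 in WT livers (-0.24 ± 0.35). Col1a2 had 1859, 2103 and 3918, against 2133, 1713 and 2424 in WT livers (0.26 ± 0.40). Col3a1 had 4270, 2464 and 9910, against 4529, 2591 and 7707 in WT livers (0.07 ± 0.57). These fibrillar collagens thus overlapped with WT in C/EBPα KO livers.

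The members of highest level in the other classes overlapped with WT as well. Col4a2 had 1704, 575 and 6628 normalized reads in C/EBPα KO, against 1314, 942 and 1706 in WT livers, and Col15a1 had 24, 13 and 59, against 36, 10 and 51. Among fibril-associated collagens, Col14a1 had 2022, 683 and 2764 in C/EBPα KO, against 2418, 2096 and 2836 in WT livers, and Col16a1 had 190, 75 and 879, against 205, 150 and 191. In each of these genes replicate 2 was the lowest and replicate 3 the highest of the C/EBPα KO libraries. Col8a2 had 71, 31 and 114 in C/EBPα KO, against 41, 49 and 70 in WT livers, and Col7a1 had 33, 7 and 55, against 9, 19 and 19. Of the transmembrane collagens, Col13a1 had 44, 12 and 413, against 97, 42 and 76 in WT livers. Col25a1, with 170, 61 and 82 in C/EBPα KO, against 135, 164 and 151 in WT livers, was not highest in replicate 3.

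The C/EBPα KO libraries spread widely around WT, in an order that most members shared. Replicate 3 was the highest of its group in 33 of 39 members (84.6%), as in 38.2% of all genes, and replicate 2 the lowest in 32 (82.1%), as in 34.4% of all genes. Replicate 3 exceeded all WT libraries in 27 members and replicate 2 lay below all of them in 27, each 69.2%, against 31.8% and 31.2% of all genes. The members summed to 31988, 17884 and 97111 normalized reads in C/EBPα KO replicates 1 to 3, against 46003, 30955 and 48221 in WT livers. Col18a1 had 8863, 4861 and 40917 in C/EBPα KO, against 21800, 12753 and 18972 in WT livers, and Col4a1 had 4006, 1008 and 15195, against 3738, 1988 and 3913. The basement membrane class followed, with 6014, 1682 and 23422 in C/EBPα KO, so that replicate 3 was 4.76 times the WT mean. That library also had the highest muscle marker sum of its group, 1506 normalized reads, and the part of this in the result was not tested.

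Col5a3, a type V chain, was the member with the lowest estimate in C/EBPα KO livers. It had 7, 8 and 60 normalized reads in C/EBPα KO, against 160, 185 and 51 in WT livers (-2.82 ± 0.80, adjusted p = 0.0931), so replicate 3 overlapped WT. Without C/EBPα KO replicate 3 the change was -3.77 ± 0.62 and passed (adjusted p = 0.0068), the 1 member that did. Of all genes 4.51% passed there. In that fit 30 of 39 members had estimates below 0 and 9 above, with a median of -0.52, against 0.04 over all genes. The library left out was the highest of its group in 33 of 39 members, so leaving it out lowers their estimates. In HNF4α KO livers Col5a3 had 166 and 106, within the WT range.

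Set directly against HNF4α KO, C/EBPα KO livers had lower values of 5 of 39 members (12.8%) and higher values of 0. Of all genes 3.48% passed, 1.87% lower and 1.61% higher. By an unadjusted p under 0.05 in limma, 12 members (30.8%) were lower and 1 (2.56%) higher, against 9.94% and 8.71% of all genes. Col1a1 differed by -3.04 ± 0.40 on the log2 scale (adjusted p = 0.00287), Col12a1 by -3.01 ± 0.58 (0.0184), Col6a2 by -2.61 ± 0.45 (0.0111), Col6a1 by -2.35 ± 0.43 (0.015) and Col1a2 by -2.06 ± 0.45 (0.0322), adjusted p in parentheses. Col12a1 had 130, 39 and 63 normalized reads in C/EBPα KO, against 637 and 488 in HNF4α KO livers. Col6a1 had 683, 461 and 1047, against 4892 and 2533, and Col6a2 had 632, 572 and 945, against 6507 and 2816. The groups did not overlap for these genes. Without HNF4α KO replicate 1, no member passed this limma contrast (0.484% of all genes did, 0.281% higher and 0.203% lower). At an unadjusted p under 0.05, 0 members were then higher and 7 (17.9%) lower, against 3.83% and 4.34% of all genes.

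Some genes that process collagen were higher in HNF4α KO livers too. Of 28 tested genes for collagen folding and crosslinking, 7 rose in HNF4α KO livers and 0 fell, where 1.54% of all genes rose and 3.17% fell. Their median log2 change was 1.15, against 0.02 over all genes. P4ha2, a prolyl hydroxylase subunit that stabilises the helix, had 1244 and 1579 normalized reads in HNF4α KO, against 294, 201 and 261 in WT livers (2.49 ± 0.46, adjusted p = 0.0103). Serpinh1, the collagen chaperone, had 5508 and 4098, against 1479, 1039 and 1791 in WT livers (1.76 ± 0.43, adjusted p = 0.0414). Tgm2, a crosslinking transglutaminase, had 9724 and 11635, against 2006, 1740 and 2250 in WT livers (2.42 ± 0.35, adjusted p = 0.00251). Unlike the 4 collagens that rose, Tgm2 was higher in replicate 2 than in replicate 1 and was the 1 gene of the list to pass with replicate 2 alone (2.55, adjusted p = 0.0347). Sparc, a collagen-binding matrix protein, had 14298 and 10031 in HNF4α KO, against 4705, 3308 and 4351 in WT livers. The others that rose were Fkbp10, Sparc, Pcolce and Loxl1, by 2.10, 1.55, 1.77 and 2.35 on the log2 scale. P4hb, the abundant partner of prolyl hydroxylase, was level, with 18596 and 18221 in HNF4α KO, against 15296, 19650 and 20643 in WT livers. In C/EBPα KO livers 1 of the 28 rose and 0 fell, where 0.883% of all genes rose and 2.86% fell. A single call is not read as a change of the list. The gene was the hydroxylase subunit P4ha3 (1.90 ± 0.46, adjusted p = 0.0444), with 207, 168 and 124 in C/EBPα KO, against 68, 29 and 40 in WT livers. Between the knockouts, P4ha1, P4ha2, Plod2, Lox and Tgm2 were lower in C/EBPα KO livers. Without HNF4α KO replicate 1 this call held for P4ha2 (adjusted p = 0.045) and ended for P4ha1, Plod2, Lox and Tgm2 (0.117, 0.142, 0.209 and 0.225).

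Of 13 genes for collagen breakdown and its inhibitors, 2 rose and 0 fell in HNF4α KO livers (1.54% and 3.17% of all genes), with a median of 0.71. Timp1, an inhibitor of matrix proteases, had 176 and 259 normalized reads in HNF4α KO, against 8, 21 and 24 in WT livers (3.65 ± 0.76, adjusted p = 0.0201). It also rose in C/EBPα KO livers, with 120, 97 and 544 (3.45 ± 0.68, adjusted p = 0.0164), so it was the 1 gene of the list that passed in both knockouts. Of all genes 0.883% rose in C/EBPα KO livers. Mrc2, a collagen uptake receptor, rose by 1.81 ± 0.44 in HNF4α KO livers (adjusted p = 0.0418). Mmp14, a membrane collagenase, had 2100 and 1299 in HNF4α KO, against 1618, 1791 and 1269 in WT livers, and Mmp9 had 1726 and 1461, against 1904, 1277 and 708. Timp2 and Timp3 were lower in C/EBPα KO than in HNF4α KO livers, by -1.72 and -1.99, and neither passed without HNF4α KO replicate 1 (adjusted p = 0.28 and 0.174). With HNF4α KO replicate 2 alone, none of the 13 passed.

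Of 17 genes of TGF-beta signalling, the growth factor pathway best known for inducing collagen synthesis, 4 rose and 0 fell in HNF4α KO livers (1.54% and 3.17% of all genes), with a median of 0.95. Tgfb1 and Tgfb3, both ligands, had 2585 and 2393 and 466 and 467 normalized reads in HNF4α KO, against 956, 1189 and 897 and 122, 121 and 116 in WT livers. Their log2 changes were 1.30 ± 0.32 (adjusted p = 0.0448) and 1.95 ± 0.39 (adjusted p = 0.0158). Ltbp3, which holds latent ligand in the matrix, rose by 3.05 ± 0.56 (adjusted p = 0.00994), and Ctgf, a matricellular target, by 2.64 ± 0.45 (adjusted p = 0.00686). With replicate 2 alone Ctgf passed (3.01, adjusted p = 0.0414), whereas Tgfb1, Tgfb3 and Ltbp3 did not (adjusted p = 0.373, 0.187 and 0.13). In C/EBPα KO livers none of the 17 passed, and Ltbp3 and Tgfb3 were lower there than in HNF4α KO livers, calls that ended without HNF4α KO replicate 1 (adjusted p = 0.156 and 0.115).

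None of the 9 collagen receptors passed in any of the 3 comparisons, nor did any of the 15 basement membrane partners such as laminins and nidogens. The laminin chain Lamc1 had 2245 and 1796 normalized reads in HNF4α KO, against 1622, 1049 and 1959 in WT livers, and Nid1, which links laminin to type IV collagen, had 2288 and 1782, against 2441, 1346 and 2824. Both overlapped between the groups. Among receptors, Itgb1, the shared integrin subunit, had 3014 and 3508 normalized reads in HNF4α KO, against 3847, 2748 and 5024 in WT livers. Ddr1, a receptor tyrosine kinase for collagen, had 377 and 378, against 137, 145 and 143 in WT livers (1.41 ± 0.79, adjusted p = 0.34). Of 9 small leucine-rich proteoglycans, which bind fibres, none passed against WT. Dcn had 2459 and 2129 in HNF4α KO, against 1925, 2339 and 2096 in WT livers, and Bgn had 7496 and 6372, against 2222, 1863 and 2161 (1.73 ± 0.49, adjusted p = 0.0714). Fmod was lower in C/EBPα KO than in HNF4α KO livers by -2.69 (adjusted p = 0.0185), but not without HNF4α KO replicate 1 (adjusted p = 0.298).

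Of the markers of collagen-producing cells, 3 of 15 passed in HNF4α KO livers, where 1.54% of all genes rose and 3.17% fell. Their median log2 change was 1.60 with both libraries and 1.11 with replicate 2 alone, against 0.02 over all genes. The 15 stellate cell and fibroblast markers summed to 43934 and 13386 normalized reads in HNF4α KO, against 5683, 5377 and 6840 in WT livers. Muscle also expresses Des, which made up 31081 of the first sum and 612 of the second. The markers that rose (0 fell) were Ngfr, Acta2 and Tagln, by 2.84, 2.42 and 2.82 on the log2 scale. Tagln, a contractile protein of activated stellate and smooth muscle cells, had 1720 and 2026 in HNF4α KO, against 289, 246 and 257 in WT livers (adjusted p = 0.00242), and passed with replicate 2 alone (adjusted p = 0.0385), as Ngfr and Acta2 did not (0.104 and 0.15). Reln, a product of resting stellate cells, was level, with 2248 and 3605 in HNF4α KO, against 2483, 2768 and 3706 in WT livers. These markers' part in the collagen result was not tested. The 12 endothelial markers summed to 15039 and 14465 in HNF4α KO, against 11524, 9788 and 13663 in WT livers, and none passed. Of these, Stab1 had 1718 and 1314 in HNF4α KO, against 1444, 1170 and 1848 in WT livers, and Eng had 4277 and 4371, against 2824, 1924 and 1957. Flt1 was lower in C/EBPα KO than in HNF4α KO livers by -1.57 (adjusted p = 0.0435), but not without HNF4α KO replicate 1 (0.383). In C/EBPα KO livers 0 of 15 stellate cell markers passed, where 3.75% of all genes did, and their sums were 11168, 7648 and 9866. Reln alone made up 8205, 4352 and 3651 of these sums. The median log2 change of the 15 in C/EBPα KO livers was 0.31, with 9 of them above 0. Of 8 bile duct markers 4 rose and 0 fell there, where 0.883% of all genes rose and 2.86% fell. Those that rose were Sox9 (2.90 ± 0.65), Spp1 (2.19 ± 0.48), Cldn7 (4.01 ± 0.82) and Prom1 (2.26 ± 0.44). Another bile duct marker, Epcam, was higher in C/EBPα KO than in HNF4α KO livers by 4.22 in limma (adjusted p = 0.0181). Cldn7 and Spp1 were higher in that contrast too, by 5.44 and 2.26 (adjusted p = 0.00987 and 0.0466). These calls ended without HNF4α KO replicate 1, where the differences were 2.68, 3.74 and 1.64 for Epcam, Cldn7 and Spp1. Epcam had 6 and 58 normalized reads in HNF4α KO, against 58, 69 and 62 in WT livers.

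Collagen genes had few binding sites of either factor near their starts. A region was counted where peaks of both replicates met, within 5 kb of the start in mm9. For HNF4α at P0.5 the 2 lists were identical, so there the rule removed nothing. C/EBPα regions stood near 1, 6, 11, 2 and 5 of the 39 collagen starts at E15.5, E18.5, P0.5, P14 and P60, or 2.56%, 15.4%, 28.2%, 5.13% and 12.8%. Of 14942 protein-coding genes tested, 14.7%, 56.6%, 71.7%, 42.7% and 42.9% had one at these stages. HNF4α regions stood near 8, 1, 2, 4 and 3 collagen starts (20.5%, 2.56%, 5.13%, 10.3% and 7.69%), against 40.9%, 13.2%, 35.5%, 33.4% and 43.1% of the protein-coding genes. The collagen share was the smaller at every stage for both factors. At any stage, 11 members (28.2%) had a C/EBPα region and 11 an HNF4α region, against 74.2% and 56.7% of the genes. Neither factor was found near 20 members (51.3%), against 18.9% of genes, and both near 3 (7.69%), against 49.7%. Peak numbers per list differ between stages, so a change over stages within the collagens was not tested.

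**Figure D4:**
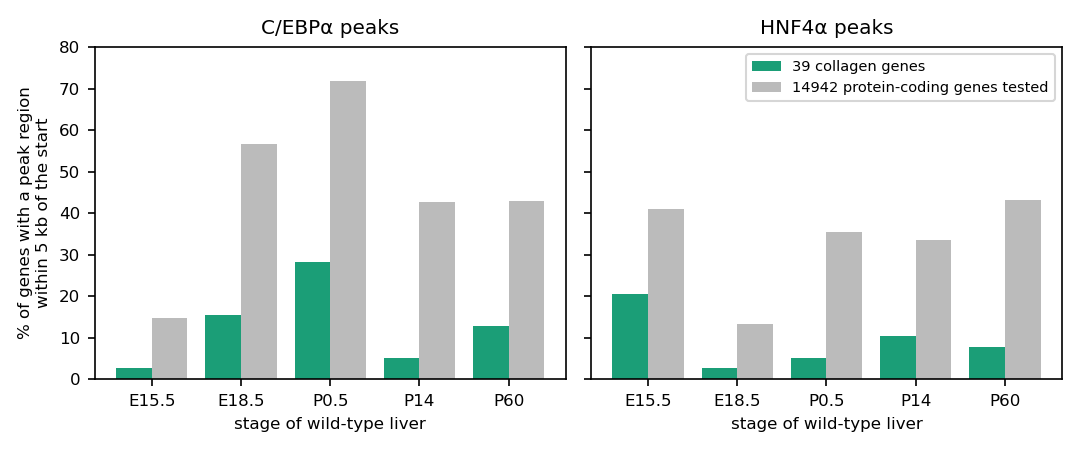
Share of the 39 collagen genes (green) and of the 14942 protein-coding genes tested (grey) with a peak region of both replicates within 5 kb of the start, by stage, for C/EBPα (left) and HNF4α (right). The green bar is the lower of the pair in all 10 pairs, with its highest value, 28.2%, for C/EBPα at P0.5.

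None of the 4 collagens that rose in HNF4α KO livers had a region of either factor within 5 kb of the start at any stage. Between the ends of the gene and up to 5 kb beyond them, Col1a1 had C/EBPα regions at 2 stages, the nearest 8.95 kb into the gene at E18.5, and Col6a2 had HNF4α regions at 2 stages. Col1a2 and Col6a1 had no region of either factor there. At all 5 stages, 1 member (2.56%) had regions of each factor within 5 kb of the start. Of the protein-coding genes, 13.4% had this for C/EBPα and 10.9% for HNF4α. The member was Col14a1, whose RNA was level in HNF4α KO livers. An HNF4α region was centred 4.30 to 4.41 kb before its start at all 5 stages, and a C/EBPα region 4.33 to 4.42 kb before it from E18.5 on. Another C/EBPα region was centred 4.90 to 4.91 kb into the gene at all 5 stages, and at E15.5 it was the only one within 5 kb. Col11a2, a minor fibrillar chain, had an HNF4α region about 2.6 kb upstream at E15.5, P0.5, P14 and P60 (at P60, mm9 chr17:34173386-34174213). Col13a1 and Col17a1, both transmembrane collagens, had a C/EBPα region at 3 stages each, 1.57 to 1.65 kb and 2.02 to 2.09 kb upstream.

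Regions that covered a start were rare. Col12a1 had such a C/EBPα region at P0.5 and P60 (at P60, mm9 chr9:79566294-79566697). Col4a3 and Col4a4, whose starts lie 72 bases apart, shared 1 HNF4α region over both starts at P14 (mm9 chr1:82583189-82583948), and Col4a1 and Col4a2 shared 1 at E15.5 inside Col4a1. By class, at any stage, HNF4α regions were near 4 of 6 basement membrane and 0 of 4 transmembrane collagens, where 56.7% of all genes had one. C/EBPα regions were near 0 of 6 and 3 of 4, where 74.2% of all genes had one. These classes are small, and shared regions count once for each gene.

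**Figure D5:**
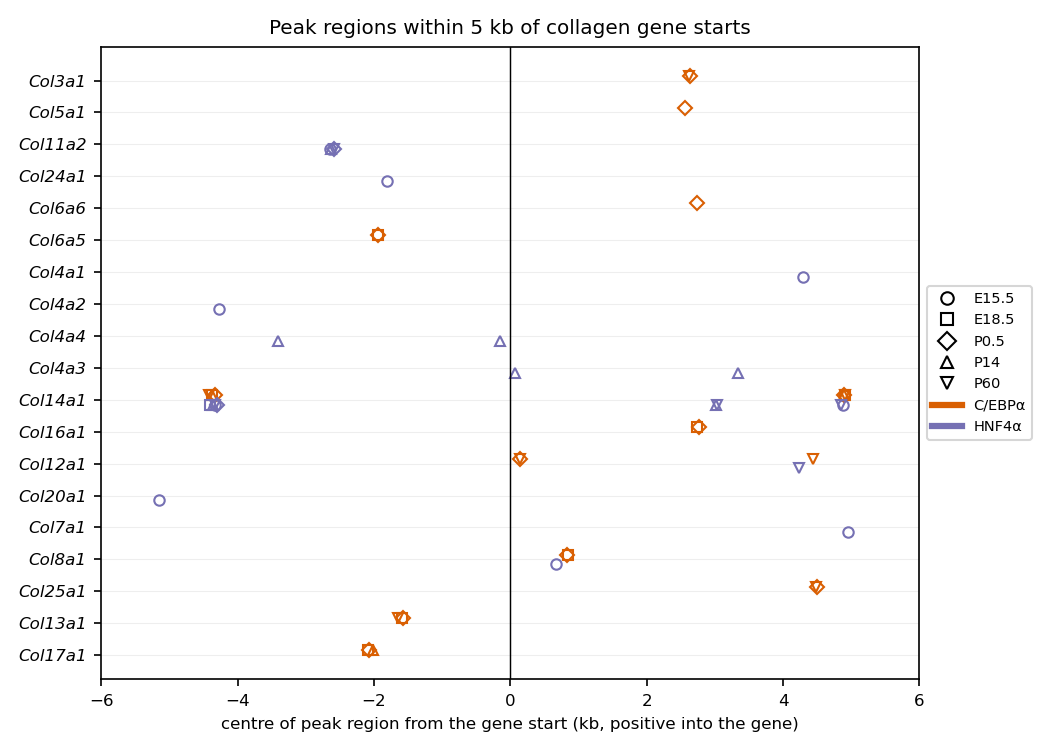
Centre of each peak region (kb from the gene start, positive into the gene) for the 19 collagen genes with one within 5 kb; colour gives the factor and symbol the stage of wild-type liver. Col14a1 holds regions of both factors at about the same places, and Col1a1, Col1a2, Col6a1 and Col6a2 are absent because they have none.

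Window width set these counts. Within 1 kb of the start, 2 members had a C/EBPα and 3 an HNF4α region at any stage, against 54.9% and 42.8% of genes, and within 20 kb 28 and 25 members did, against 92.3% and 78.8%. Over the gene and 5 kb around it, 33 and 31 of 39 members held a region, against 89.7% and 76.5% of genes. Collagen genes are long, with a median span of 114.0 kb against 21.9 kb for the protein-coding genes tested, so the last count covers far more sequence per gene.

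Promoter sequences of 250 bases before to 50 bases after the start were found in RefSeq (GRCm38.p6) for 31 members, with 34 starts, and searched on both strands. The GC box letters GGGCGG occurred in 64.7% of the collagen promoters, against 35.7% of all 32851 promoters. CCAAT occurred in 35.3% against 37.4%, and TATAAA in 11.8% against 13.6%. The C/EBP letters TTGCNNAA occurred in 3 collagen promoters (8.82%, against 10.8% of all) and the HNF4 letters CAAAGNNCA in 3 (8.82%, against 6.36%). None of these motifs contains the letters of another. Matches upstream of the start are shown for the genes that held them outside the stretches above, with the matched bases in capitals.
Col13a1, C/EBP letters, chr10:61979219-61979256, minus strand: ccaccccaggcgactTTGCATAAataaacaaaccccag
Col13a1, HNF4 letters, chr10:61979298-61979336, minus strand: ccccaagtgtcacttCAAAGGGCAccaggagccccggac
Col3a1, HNF4 letters, chr1:45311348-45311386, plus strand: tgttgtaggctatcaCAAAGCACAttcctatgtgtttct
Col4a6, C/EBP letters, chrX:141474298-141474326, minus strand: gggcccTTGTGCAAggtctctttcaggac
Col6a2, HNF4 letters, chr10:76623808-76623846, minus strand: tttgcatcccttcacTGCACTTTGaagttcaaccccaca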

How the data were processed

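RNA values were deposited as 1 table of 37583 Ensembl genes in 8 libraries. Per the file headers and the submitters' processing notes they are DESeq-normalized reads; they are treated as a score per gene, since they were normalized and rounded by the authors and are not raw counts. GC content is deposited as a fraction. The submitters' processing notes for the deposited files name, as tools of the authors, BWA, TopHat2, Cufflinks, bedtools, bcl2fastq, FastQC, DESeq and MACS 1.4 and the build mm9, with no role given. The strand setting of the counting is not given in the sources used here. Peak lists gave positions only, with every score 0. The pair of HNF4α lists for P0.5 held the same intervals, so they counted as 1 library. RNA polymerase II and input DNA samples were not analysed here.

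Genes with at least 10 normalized reads in at least 2 libraries were fitted as log2(value + 1) with limma 3.58.1 in R 4.3.3, with a variance trend, all 8 libraries and a term for group, which leaves 3 contrasts. Tests were 2-sided with Benjamini-Hochberg adjustment over 17771 genes and a threshold of 0.05; the fit was tested on simulated data. A log2 change on this scale understates that of low genes. Peaks of a stage were merged over both replicates, and a region needed at least 1 peak of each. No transcript lengths were used, so levels are not compared between genes. The members and gene lists were chosen with earlier results of these data known. The rule for names took all members, each list gene that passed and the 2 of highest mean in a list; some genes of high mean in the marker lists are given only within their sums. A gene of the TGF-beta signalling list is not reported here. Other pseudocounts, filters, scalings and left-out libraries were tried. Positions are in mm9 for the table and peaks and in GRCm38.p6 for RefSeq promoters; no position was carried between them. Replicate numbers were not taken as pairs: correlations of deviations of same-numbered libraries ran from -0.23 to 0.19. Differently numbered libraries reached 0.49, for WT replicate 3 with C/EBPα KO replicate 1, and -0.42, for WT replicate 2 with C/EBPα KO replicate 1.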

Additional observations from a re-analysis of the deposited data

Results flagged for a closer look

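The difference of the 2 knockouts from each other passed the limma contrast for 5 collagens, all lower in C/EBPα KO than in HNF4α KO livers. The log2 differences were -3.04 for Col1a1, -3.01 for Col12a1, -2.61 for Col6a2, -2.35 for Col6a1 and -2.06 for Col1a2. Without HNF4α KO replicate 1, which held skeletal muscle RNA, none of the 5 passed, and the lowest adjusted p among them was 0.0596, for Col1a1. The muscle markers summed to 662945 normalized reads in that library, and their part in these differences was not tested.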

How the results depend on the processing

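The count of collagens that passed was 0 in C/EBPα KO, 4 in HNF4α KO and 5 between the knockouts. Of all genes 3.75%, 4.7% and 3.48% passed, and this share also moved with the settings. With no filter the count was 1 for HNF4α KO and 1 between the knockouts (1.05% and 0.561% of all genes). With each pair of groups fitted alone it was 7 and 3 (7.13% and 1.8%). With no variance trend it was 2 for HNF4α KO (3.76%). Without both WT replicate 3 and C/EBPα KO replicate 1 it was 1 and 2 (1.97% and 0.765%). Leaving out 1 library in turn gave 0 to 1, 0 to 6 and 0 to 8, with 0 for both HNF4α KO contrasts without HNF4α KO replicate 1. For HNF4α KO the count was 2 without WT replicate 1 or 2 (2.1% and 3.61% of all genes). Between the knockouts it was 3 without C/EBPα KO replicate 1 and 8 without C/EBPα KO replicate 3 (1.45% and 4.78%). Without C/EBPα KO replicate 3 it was also 1 for C/EBPα KO and 6 for HNF4α KO (4.51% and 7.57%). Without both HNF4α KO replicate 1 and C/EBPα KO replicate 3, a choice made after seeing the data, it was 1 for C/EBPα KO (3.65%). The HNF4α KO contrasts of that fit rest on 1 library, with a Col1a1 log2 change of 2.42 against WT. With the replicate block the count was 0, 7 and 6 (2.86%, 2.73% and 1.62% of all genes). With the block and a GC correction it was 0, 10 and 6 (3.38%, 2.7% and 1.88%). The replicate numbers are not known to pair libraries. Equal library totals moved the all-gene median of C/EBPα KO minus WT to 0.53 and that of the members to 0.58. For HNF4α KO minus WT, Col1a1 kept its call in 20 of 21 alternatives, Col6a2 in 14, Col1a2 in 16 and Col6a1 in 13, and no alternative changed their sign. Collagens with a C/EBPα or HNF4α region numbered 11 and 11 within 5 kb, 2 and 3 within 1 kb, 28 and 25 within 20 kb, and 33 and 31 with the gene body; from 1 replicate, 14 and 10 to 12. Why settings differ was not tested beyond what their construction shows. With 2 HNF4α KO libraries, 1 of them with muscle RNA, smaller changes could not be detected.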

Other observations

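Mesothelial markers, of the liver surface layer, summed to 508 to 685 normalized reads in C/EBPα KO, 2297 and 1514 in HNF4α KO, and 892 to 1280 in WT livers. None of the 7 passed against WT, and Upk3b and Krt14 were lower in C/EBPα KO than in HNF4α KO livers, by -1.92 and -3.24 on the log2 scale; without HNF4α KO replicate 1 neither passed (adjusted p = 0.268 and 0.478). Of 10 cartilage and bone markers 3 were high enough to be tested and none passed, with sums of 195 to 253 in C/EBPα KO, 229 and 242 in HNF4α KO, and 324 to 548 in WT livers.

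A pair of low collagens was highest in C/EBPα KO replicate 3. Col2a1 had 6, 4 and 46 normalized reads in C/EBPα KO, 25 and 3 in HNF4α KO, and 2, 2 and 9 in WT livers. Col9a1 had 3, 3 and 35 in C/EBPα KO, 10 and 1 in HNF4α KO, and 0, 6 and 1 in WT livers. In both genes the C/EBPα KO value of replicate 3 was the highest of the 8 libraries. Only that library and HNF4α KO replicate 1 reached 10 normalized reads in them. Both genes are thus members only through these 2 libraries, and high values there follow from the rule for members. Col4a1 and Col18a1 were also highest in C/EBPα KO replicate 3, but were above that limit in all 8 libraries.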
